A study of Mus musculus domesticus and Mus musculus domesticus x Mus musculus castaneus and Mus musculus castaneus with 10 samples.

Results

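Synaptic vesicle release genes encode the proteins that dock, prime, fuse and retrieve transmitter vesicles. Their RNA was measured here in undifferentiated mouse stem cells, to show which of them were already expressed before any neuron is made. The members were 42 given gene symbols, covering calcium sensors, synapsins, vesicle membrane proteins, SNAREs and their regulators, priming and active zone proteins, Rab3 proteins and endocytic proteins. Of these, 41 matched a gene of the count table by Ensembl identifier, out of 26808 genes in all, and Syt11 was not analysed here.

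The study sequenced poly(A) RNA of undifferentiated pluripotent stem cells to compare gene expression between mouse subspecies. The cells used here were induced pluripotent stem cells of CAST/EiJ, an inbred strain of Mus musculus castaneus, in 2 libraries (replicates 1 and 2). Embryonic fibroblasts of this strain had been reprogrammed with retroviral Oct4, Sox2 and Klf4, and the cells were grown with LIF on irradiated mouse fibroblasts that were depleted before RNA extraction. The paper does not give the number of CAST/EiJ lines, so both libraries may come from 1 line. The batch label differs between the libraries, and batch therefore cannot be told apart from replicate. The methods describe 2 CAST replicates taken from stem cell cultures, without saying outright that each had a culture of its own. The 129S6/SvEv and hybrid samples were not analysed here. With 1 group there was no comparison between strains or conditions and no p-value. The spread given is that between these 2 libraries, which may be technical.

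At a synapse, vesicles filled with transmitter are tethered at the active zone by Rim, Bassoon and Piccolo and primed by Munc13 proteins. The vesicle SNARE synaptobrevin and the plasma membrane SNAREs syntaxin 1 and SNAP-25 pull the membranes together, and synaptotagmins couple fusion to calcium. NSF and the SNAP adaptors then take the SNARE complex apart, and dynamin and AP180 take part in retrieving the vesicle membrane. Several of these proteins have close relatives that serve secretion and membrane traffic in cells of other tissues.

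The libraries held 14460393 counts (replicate 1) and 13728098 counts (replicate 2). Each gene's count was divided by its library's total and multiplied by 1000000 (CPM). On this scale 3 counts, used as the floor, equal 0.207 and 0.219 CPM. A gene was called expressed at 1 CPM or more in both libraries, not detectable at 3 counts or fewer in both, and low in between. Stem cell markers were high, with 8 of 8 measured genes expressed, among them Zfp42 at 573 and 493 CPM and Esrrb at 903 and 556 CPM. Fibroblast markers were also present, with 8 of 8 expressed and summed levels of 3133 and 1254 CPM. Of these sums Col1a1 alone gave 1726 and 777 CPM, while Dcn was at 3.25 and 3.21 CPM and Pdgfrb at 6.15 and 6.63 CPM. In bulk samples, fewer cells of a type and less RNA per cell cannot be told apart.

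The members were unevenly expressed in the stem cells, with 26 of 41 (63.4%) expressed, 9 low and 6 not detectable. Of all genes 43.8% were expressed by the same rule, and of protein-coding genes 62.4%, so the members' share lay close to that of protein-coding genes. Counts of expressed genes by role or marker list are to be read beside the same 62.4%. The share not detectable was 14.6% of the members, against 44.6% of all genes and 24.8% of protein-coding genes. Together the members took 0.0653% of the counts in replicate 1 (95% Wilson interval 0.0640 to 0.0666) and 0.0646% in replicate 2 (0.0633 to 0.0660), or 0.0650% ± 0.000493 (SD, n = 2). Intervals and floors here cover counting error only. Across the 41 members the CPM of the libraries had a Spearman correlation of 0.956, which describes members of the same 2 libraries.

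To compare one gene with another, counts were divided by the kilobases of each gene's merged exons and scaled to 1000000 per library, a length-scaled level. On this scale 15 of the 41 members stood above at least 50% of the 18371 protein-coding genes, and the median member stood above 38.8% of them. Nsf led, at length-scaled levels of 104 and 72.4 in replicates 1 and 2, above 86.9% of protein-coding genes. Syngr1 followed at 60.4 and 52.2, Vamp2 at 26.7 and 55.9, and Syt9 at 41.1 and 32.4. The values of Nsf did not overlap those of these other members, whereas Vamp2 overlapped both Syngr1 and Syt9, so that their order was not separated by the spread between libraries. Gene counts do not show which transcripts were present, and a gene with long exons that are little used here would have too low a level on this scale.

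**Figure D1:**
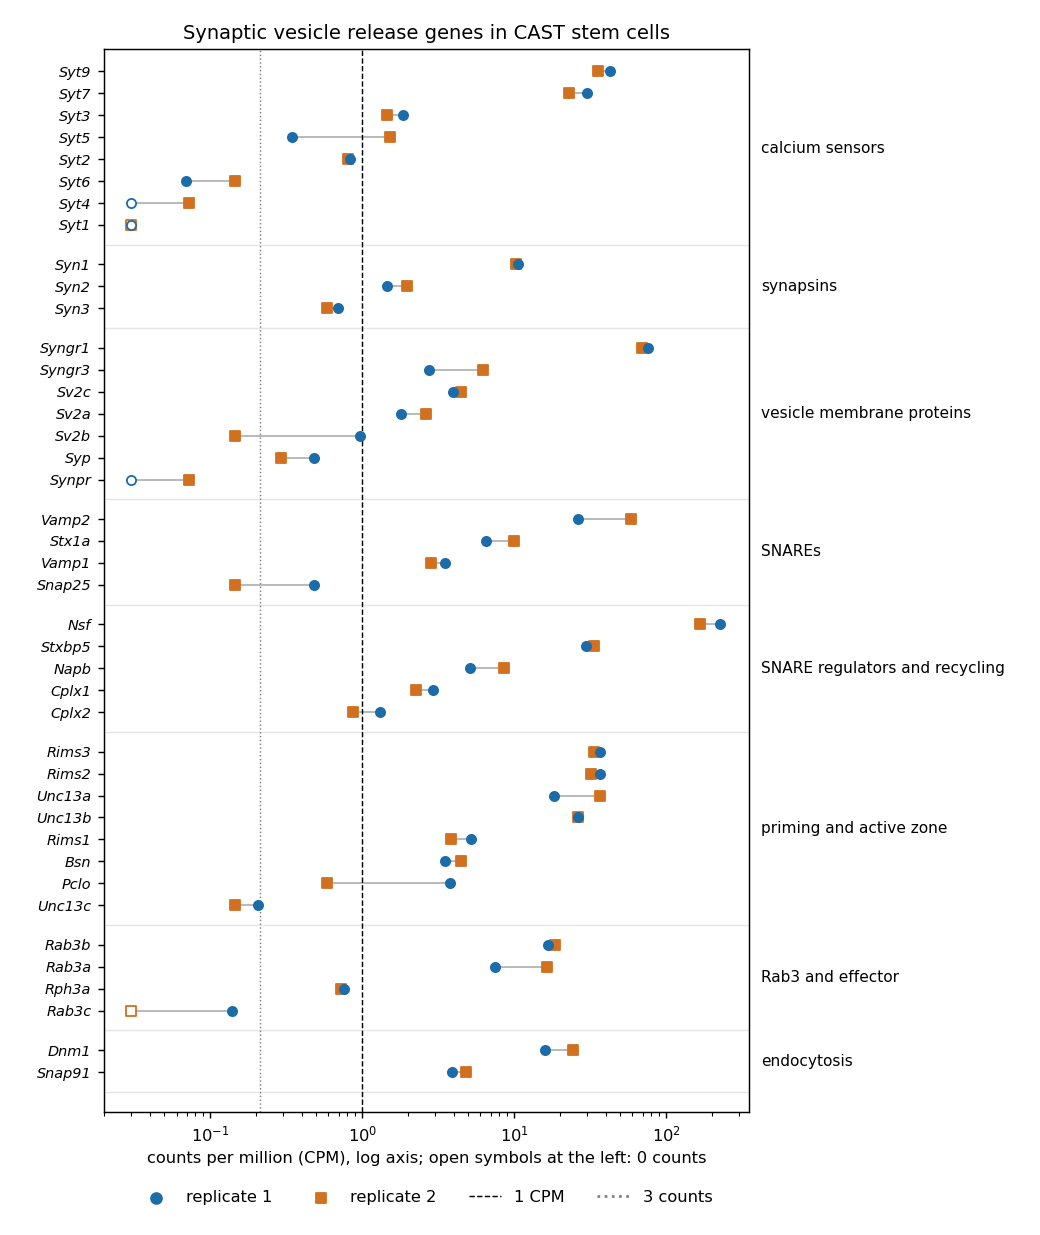
CPM of the 41 measured synaptic vesicle release genes in both CAST libraries, on a log axis, 1 row per gene and grouped by role. Nsf stands apart at 227 and 168 CPM, the dashed line marks 1 CPM, and Syt1 had no count in either library.

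Of the 8 measured synaptotagmins, grouped here as calcium sensors, 3 were expressed, Syt9 and Syt7 well above 10 CPM and Syt3 under 2 CPM. Many but not all synaptotagmins bind calcium through paired C2 domains, and synaptotagmin 1 is the main sensor for fast release in forebrain neurons. Syt1 (ENSMUSG00000035864, chr10:108497650-109010982, minus strand, GRCm38) had 0 counts in both libraries, against the floor of 3 counts at 0.207 and 0.219 CPM and exact 95% Poisson upper limits of 0.255 and 0.269 CPM. Syt9, a sensor of fast release in some neurons and of hormone secretion, was measured at 616 and 490 counts, or 42.6 and 35.7 CPM (39.1 ± 4.88, SD, n = 2). It lies at chr7:107370728-107548656 on the plus strand. Syt7, known for slow release and for exocytosis in many cell types, was at 30.4 and 23.1 CPM (26.7 ± 5.14). Per length, Syt9 made up 68.5% and 67.4% of the summed level of the 8 listed synaptotagmins that were measured, and Syt7 25.95% and 23.17%.

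The remaining synaptotagmins were close to the expression limit or under the floor. Syt3 was expressed at 1.87 and 1.46 CPM. Syt2, the fast sensor of hindbrain and neuromuscular synapses, was low at 0.83 and 0.801 CPM, from 12 and 11 counts. Syt5 passed 1 CPM in replicate 2 alone, with 5 counts in replicate 1 and 21 in replicate 2. Syt4 was not detectable, at 0 and 1 counts, and neither was Syt6, at 1 and 2 counts.

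Of the synapsins, which tether vesicles to one another and to actin, Syn1 carried most of the level. It was at 10.6 and 10.3 CPM, against 1.45 and 1.97 CPM for Syn2. Per length, Syn1 made up 92.4% and 90.5% of the summed level of the 3 synapsins. Syn3 was low, at 10 and 8 counts, and shares 1733 exon bases (14.1% of its own) with Timp3 on the opposite strand, which was at 53.5 and 11.8 CPM. The strand setting of the counting was not given in the sources used here, so reads from these shared bases cannot be assigned to Syn3 or Timp3.

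Among the vesicle membrane proteins, Syngr1 was clearly expressed while synaptophysin was not. Synaptogyrin 1 is a four-pass vesicle protein, and its gene Syngr1 (chr15:80091334-80119501, plus strand) was at 75.5 and 69.6 CPM (72.6 ± 4.16). Syngr3 was at 2.77 and 6.26 CPM. Syp, whose product synaptophysin is a common stain for synapses, had 7 and 4 counts, and the related Synpr had 0 and 1. The SV2 transporters, among them the target of the epilepsy drug levetiracetam, were low to modest: Sv2a at 1.80 and 2.62 CPM, Sv2c at 3.94 and 4.44 CPM, and Sv2b at 14 counts in replicate 1 and 2 counts in replicate 2. Per length, Sv2a and Sv2c made up most of the SV2 level, with 42.6% and 44.7% in replicate 1 and 54.3% and 44.0% in replicate 2.

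Of the 4 SNARE genes 3 were expressed, and Snap25 was low. Vamp2 (chr11:69088490-69092384, plus strand), which encodes synaptobrevin 2, was at 26.5 and 59.0 CPM. Vamp1, its relative in motor and brainstem synapses, was at 3.53 and 2.84 CPM. Stx1a, the syntaxin of the plasma membrane, was at 6.50 and 9.91 CPM (8.20 ± 2.41). Snap25 (chr2:136713453-136782428, plus strand), the target of botulinum toxin A, had 7 and 2 counts, or 0.484 and 0.146 CPM. Vamp1, Vamp2 and Stx1a were thus expressed, and Snap25 lay near the floor of 3 counts.

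Genes that control SNARE assembly and disassembly included Nsf, the member with the most counts. Nsf (chr11:103821782-103954056, minus strand) encodes the ATPase that recycles SNAREs in every cell type, and was at 227 and 168 CPM (197 ± 41.8). It alone made up 34.7% and 25.9% of all member counts. Stxbp5, which encodes tomosyn, an inhibitor of SNARE assembly, was at 29.7 and 33.6 CPM. Napb, the brain form of the SNAP adaptor, was at 5.12 and 8.60 CPM. The complexins, which clamp and promote fusion, were near the limit, with Cplx1 expressed at 2.90 and 2.26 CPM and Cplx2 low at 1.31 and 0.874 CPM.

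Of the 8 priming and active zone genes, 6 were expressed. Rims2, which encodes a Rim scaffold that gathers calcium channels and docked vesicles, was at 36.9 and 31.9 CPM. Rims3, which encodes a short Rim form without most of the scaffold's domains, was at 36.7 and 33.5 CPM. Rims1, the best studied Rim gene, was at 5.19 and 3.86 CPM. Per length, Rims3 made up 52.0% and 53.9% of the summed level of Rims1, Rims2 and Rims3, and Rims2 40.1% and 39.4%. When the longest transcript was used in place of merged exons, Rims2 made up 54.4% and 53.6%, so the order of Rims2 and Rims3 depended on the length used, while Rims1 stayed below both.

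The Munc13 priming factors included 2 expressed members and 1 that was not detectable. Unc13a was at 18.4 and 36.5 CPM, and Unc13b, whose product is also found outside the brain, was at 26.5 and 26.4 CPM. Unc13c, best known from the cerebellum, was not detectable at 3 and 2 counts. Unc13a shares 495 exon bases (3.92% of its own) with Colgalt1 on the opposite strand, which was at 256 and 226 CPM. Of the very large scaffolds that span the active zone, Bsn was expressed at 3.53 and 4.44 CPM, and Pclo had 55 counts in replicate 1 and 8 in replicate 2.

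Rab3 proteins are the small GTPases of secretory vesicles. Rab3a, the main synaptic form, was at 7.54 and 16.5 CPM, and Rab3b, also found in pituitary and epithelial cells, was at 16.7 and 18.5 CPM (17.6 ± 1.30). Per length, Rab3b was the larger in replicate 1, with 58.2% of the summed level of Rab3a, Rab3b and Rab3c against 41.7% for Rab3a, and the smaller in replicate 2, with 41.5% against 58.5%. Their order was thus not separated by the spread between libraries. Rab3a shares 29 exon bases (1.30% of its own) with Mpv17l2 on the opposite strand, which was at 47.6 and 41.8 CPM. Rab3b shares more, 317 exon bases (8.9955% of its own), with 8030443G20Rik on the opposite strand. Larger parts than that of Rab3a were also shared by Syp (16.8%), Syt4 (14.5%), Syt6 (8.67%) and Syt7 (5.13%), among others. The genes overlapping Rab3b, Syp, Syt6 and Syt7 were not in the count table, so their levels are unknown. Of the 41 members 28 share no exon base with another annotated gene. Rab3c was not detectable at 2 and 0 counts, and Rph3a, the Rab3 effector rabphilin, was low at 11 and 10 counts. Of the endocytic members, Dnm1, the neuronal dynamin, was at 16.0 and 24.5 CPM and Snap91, which encodes AP180, at 3.87 and 4.81 CPM.

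**Figure D2:**
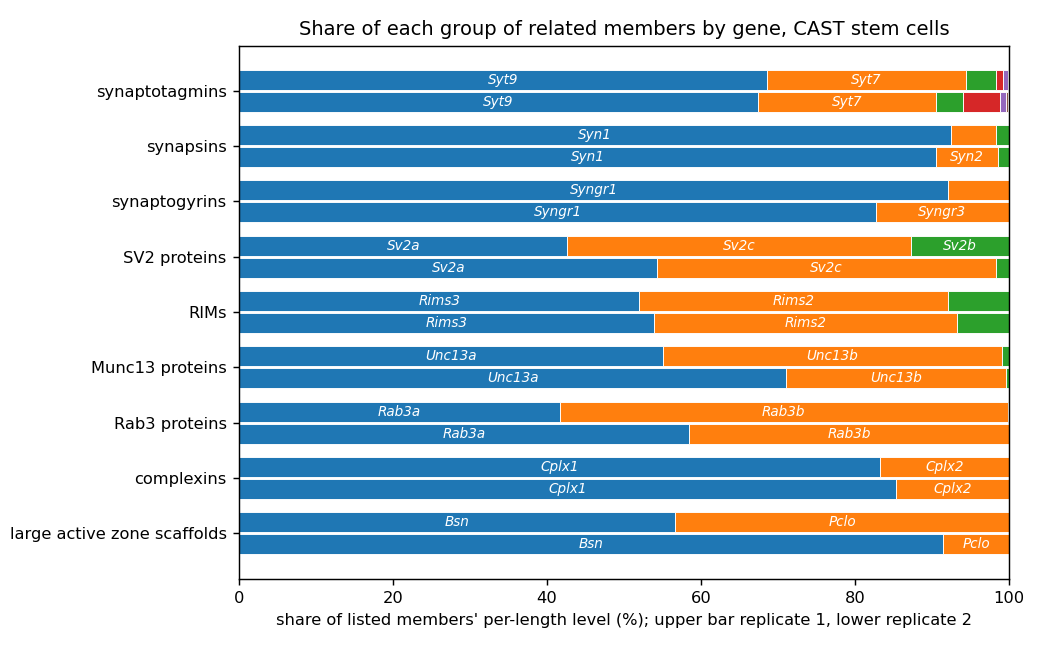
Length-scaled level of each member as a percent of the summed level of the listed members related to it, in replicate 1 (upper bar) and replicate 2 (lower bar), with merged exons as the length and the smallest parts left without a name. Genes outside the list, such as Syngr2 and Rab3d, are not in these totals. Syt9 (68.5% and 67.4%), Syn1 (92.4% and 90.5%) and Syngr1 (92.2% and 82.7%) held most of their group's level, whereas Rab3a and Rab3b changed order between the libraries.

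For 13 of the 41 members a relative that serves other tissues was set beside the member, on the length-scaled level. The member was below its relative in both libraries in 11 pairs, and above it in 2. SNAP-23 takes the place of SNAP-25 in most cells, and Snap23 was at 61.7 and 71.1, with Snap25 at 0.444% of it in replicate 1 (exact 95% counting interval 0.178 to 0.918) and 0.109% in replicate 2 (0.0132 to 0.394). Vamp3, which encodes cellubrevin, was at 86.4 and 111, and Vamp2 reached 30.9% and 50.4% of it. Vamp1 reached 1.54% and 0.908% of the same gene. Vamp2 was thus nearer to its relative than Vamp1 or Snap25 to theirs. Against Vamp8, a SNARE of endosomes and secretory granules at 15.4 and 18.2, Vamp2 was the higher in both libraries. Against Vamp4, at 27.4 and 27.0, Vamp2 was just lower in replicate 1 (26.7) and higher in replicate 2 (55.9).

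Other pairs lay between these extremes. Stx4a, a plasma membrane syntaxin of many tissues, was at 57.2 and 68.0, and Stx1a reached 16.4% and 19.7% of it. The result depends on the relative chosen, since Stx2, another plasma membrane syntaxin, was at 4.29 and 3.95, below Stx1a at 9.37 and 13.4. Dnm2, the widely expressed dynamin, was at 149.7 and 160.2, with Dnm1 at 7.85% and 10.5% of it. Napa, the general SNAP adaptor, was at 134 and 123, with Napb at 2.08% and 3.57%. Picalm, the general form of AP180, was at 43.8 and 41.3, with Snap91 at 3.72% and 4.60%. In each of these 4 pairs the neuronal form was expressed, below the relative it was paired with.

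The vesicle membrane proteins and Rab3 genes differed among themselves. Syngr2, the synaptogyrin of other tissues, was at 211 and 205, with Syngr1 at 28.6% and 25.5% of it and Syngr3 at 2.43% and 5.33%. Sypl, the relative of synaptophysin found in many cells, was at 28.4 and 21.3, with Syp at 1.26% and 0.946%. Rab3d, the Rab3 form of exocrine and other secretory cells, was at 9.44 and 12.02. Rab3a was 1.38 and 2.22 times as high as Rab3d and Rab3b 1.93 and 1.58 times, which made them the 2 members above their relative. Rab3c, under the floor in both libraries, was below Rab3d.

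**Figure D3:**
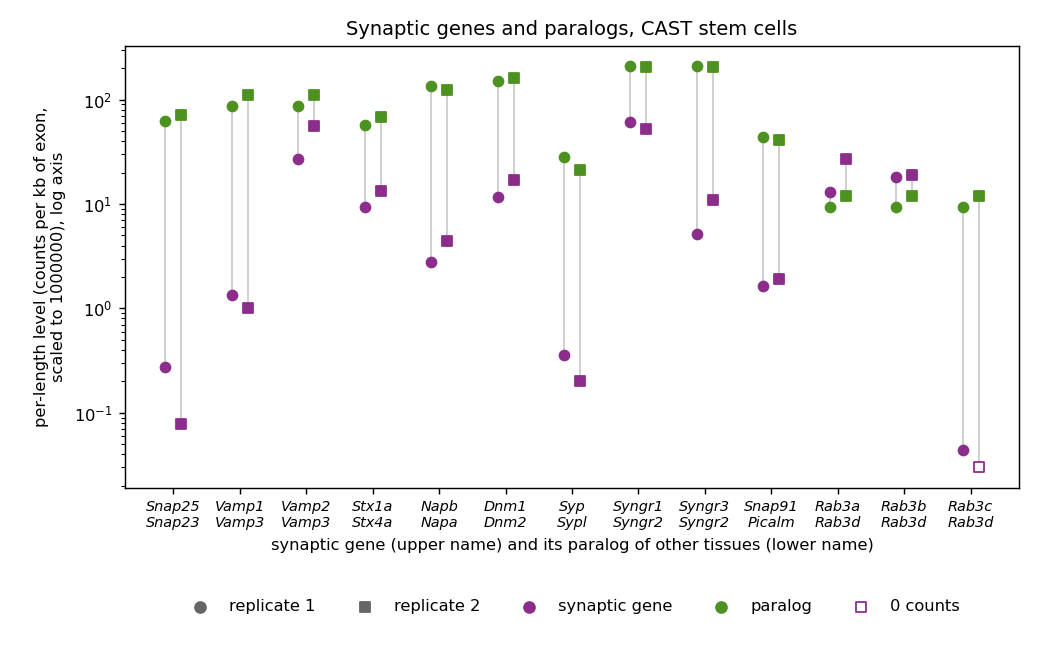
Length-scaled levels on a log axis of 13 neuronal members and the relatives that serve other tissues, with a point for each CAST library. The member lies below its relative in 11 pairs, with Snap25 at 0.444% and 0.109% of Snap23, and above it for Rab3a and Rab3b beside Rab3d.

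Of 50 further genes for SNAREs, adaptors, priming and endocytosis, 47 were in the table. Against 62.4% of protein-coding genes, 39 of these 47 (83.0%) were expressed, with 4 low and 4 not detectable. Their median stood above 63.3% of protein-coding genes per length, against 38.8% for the members. These 50 include the relatives above. The active zone genes Erc1 (54.7 and 34.6 CPM) and Erc2 (16.9 and 13.4 CPM) and the endocytic genes Amph (67.3 and 42.2 CPM) and Sh3gl2 (42.8 and 30.7 CPM) were among those expressed. Cplx4 had 0 counts in both libraries, and Cplx3, Rab27b and Syt10 were not detectable.

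Markers of neurons and other cell types were examined beside the members. Of 10 neuron markers 7 (70.0%) were expressed, near the 62.4% of protein-coding genes, with summed levels of 253 and 262 CPM. Stmn2 was at 124 and 117 CPM and Tubb3 at 81.2 and 44.2 CPM, while Dcx had 0 and 1 counts and Gap43 had 5 and 3. Elavl3, a neuronal RNA-binding protein gene, was far apart between the libraries, at 19.9 and 82.2 CPM. None of 5 motor neuron markers was expressed, with summed levels of 3.32 and 1.68 CPM and Chat at 0 counts in both libraries. Of 7 glial and progenitor markers 3 were expressed (summed levels of 107 and 89.7 CPM), with Olig2 and Fabp7 at 0. Of 4 neuroendocrine markers Chga was expressed, at 6.02 and 5.68 CPM, with Scg2 and Ins2 at 0. The part of any of these cell types in the members' levels was not tested.

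The libraries were then compared with each other, to show which member values are steady. Ratios used effective library sizes (trimmed mean of M values) and a pseudocount of 0.5 CPM, which understates the difference of low genes, and covered the 34 members with at least 10 counts in total. The 7 others (Syt1, Syt4, Syt6, Synpr, Snap25, Unc13c and Rab3c) had too few. Of the 34, 16 were higher in replicate 1 and 18 in replicate 2, with a median log2 ratio of replicate 1 to replicate 2 of -0.01, against 0.0044 over the 13824 genes compared. The median size of the log2 ratio was 0.33 for the members and 0.31 for all genes.

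At least 2-fold differences were found for 7 of the 34 members (20.6%), against 9.11% of all genes compared. Vamp2 was 2.30-fold higher in replicate 2, from 383 and 810 counts. Its ratio without a pseudocount was 2.32, with a 95% counting interval of 2.05 to 2.63. Rab3a was 2.19-fold higher in replicate 2 (109 and 226 counts), Syngr3 2.15-fold (40 and 86 counts) and Unc13a 2.04-fold (266 and 501 counts). The 5 members higher in replicate 2 were these 4 and Syt5, at 2.46-fold from 5 and 21 counts, against 4.13% of all genes in that direction.

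Pclo and Sv2b were at least 2-fold higher in replicate 1, a direction taken by 4.98% of all genes. Pclo was 3.86-fold higher with the pseudocount, from 55 and 8 counts, and 6.26-fold without it (95% counting interval 2.97 to 15.2). Sv2b was 2.23-fold higher with the pseudocount, from 14 and 2 counts. The 2 members thus rest on few counts in replicate 2, whereas Vamp2 and Unc13a had at least 266 counts in each library.

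Low genes differ more between libraries, so the members were read against genes of the same level. Between 1 and 10 CPM, 2 of 14 members were at least 2-fold apart, against 18.2% of 3510 genes. Between 10 and 100 CPM, 3 of 13 members (Vamp2, Rab3a and Unc13a) were, against 5.03% of 6149 genes. Nsf, the 1 member between 100 and 1000 CPM, was 1.30-fold higher in replicate 1. The counting interval of the ratio left out 1 for 14 of the 34 members, with 9 higher in replicate 2 and 5 in replicate 1. Over all genes compared it left out 1 for 57.1%, with 28.5% higher in replicate 2 and 28.6% in replicate 1. Stx1a (1.54-fold), Napb (1.68-fold) and Dnm1 (1.57-fold) were among those higher in replicate 2, and Syt7 (1.26-fold) and Syt9 (1.14-fold) among those higher in replicate 1.

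**Figure D4:**
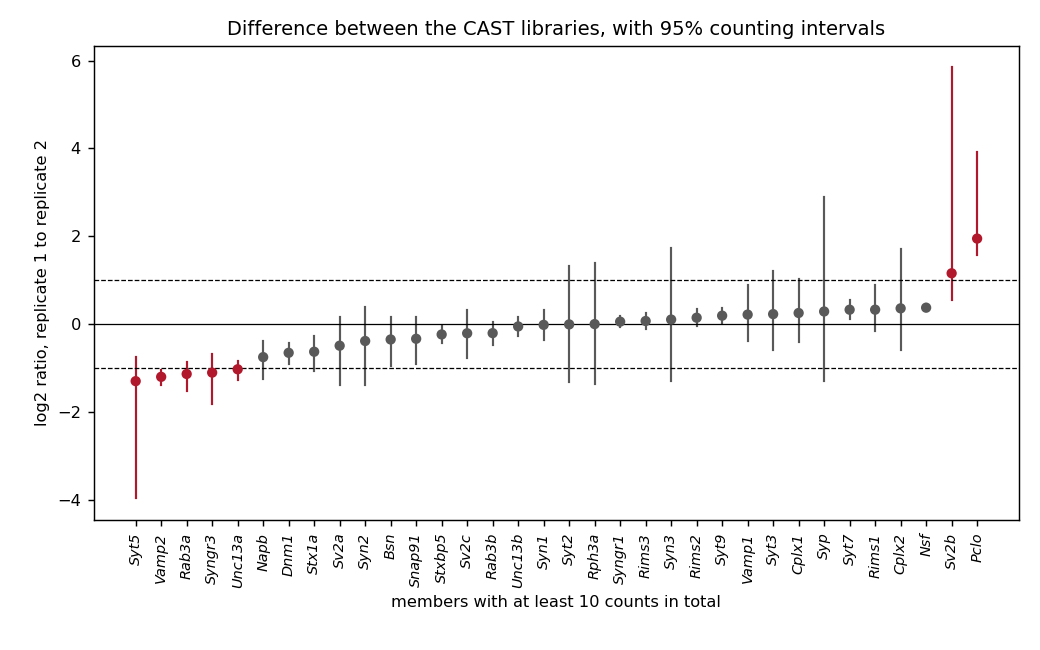
Log2 ratio of replicate 1 to replicate 2 for the 34 members with at least 10 counts, with a pseudocount of 0.5 CPM (points) and 95% counting intervals of the ratio without a pseudocount (bars), dashed lines at 2-fold and members past them in red. Pclo and Sv2b lie at least 2-fold to the replicate 1 side and Syt5, Vamp2, Rab3a, Syngr3 and Unc13a at least 2-fold to the replicate 2 side. The other 27 members lie within 2-fold.

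Other measures also differed between the libraries. Fibroblast markers were at least 2-fold higher in replicate 1 for 6 of 8 genes, their median log2 ratio being 1.31, with summed levels as given above. The others, Dcn and Pdgfrb, were slightly higher in replicate 2 (log2 ratios of -0.03 and -0.15). Of the other marker lists, Klf4 was 2.17-fold and Slc18a3 2.05-fold higher in replicate 1, the latter from 10 counts and 1 count. Elavl3 was 4.22-fold and the progenitor marker Pax6 2.57-fold higher in replicate 2. Most other neuron markers did not share that direction, since 6 of the 8 compared were higher in replicate 1 (median log2 ratio 0.23), among them Tubb3 (0.81), Map2 (0.78) and Elavl4 (0.78). Of the 4 glial and progenitor markers compared, 3 were higher in replicate 2 (median log2 ratio -0.25) and Nes was higher in replicate 1 (0.45). Members at least 2-fold higher in replicate 2 had a median GC content of 55.1%, and those higher in replicate 1 of 46.1%, against 50.3% over all genes compared. Over those genes the ratio had a Spearman correlation of -0.06 with GC content and 0.30 with transcript length, longer genes being higher in replicate 1, and over the 34 members of -0.25 and 0.28. These describe genes of the same 2 libraries, which are not independent replicates. With the trend in GC content and length removed from all genes, an alternative chosen after seeing the data, 5 members stayed at least 2-fold apart (Syt5, Vamp2, Unc13a, Rab3a and Pclo), against 8.09% of all genes. Syngr3 and Sv2b fell just short, with log2 ratios going from -1.10 to -0.997 and from 1.16 to 0.975. Rab3a stayed only just past the limit, going from -1.13 to -1.002. Pclo went from 1.95 to 1.42 and Unc13a from -1.03 to -1.35. Of the 40 genes compared of the wider machinery, 0 were 2-fold apart with the pseudocount of 0.5 CPM, against 9.11% of all genes. With 0.1 CPM 2 were, against 13.1% of all genes. These 2 were Syt13 (44 and 17 counts) and Rims4 (39 and 16 counts), whose ratios without a pseudocount were 2.36 and 2.22. The median level was 33.4 CPM for the 47 measured genes of the wider machinery and 3.99 CPM for the 41 members. Low genes differ more between libraries, so the 2-fold counts of these sets come from unlike levels. The part of fibroblasts, batch, GC content or length in the members' differences was not tested.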

How the data were processed

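The authors deposited raw read counts per Ensembl gene, with no normalization. The paper describes STAR alignment to each strain's own genome with ambiguous reads discarded, whereas the submitters' processing notes name TopHat2 2.1.1, SAMtools, HTSeq and GRCm38. Which of these made the table, and the strand setting, is not given in the sources used here. The RNA kit also differs between labels and methods. Only 2 columns matched labelled samples, and 7 other columns of per-sample values were not used. Of the 26808 identifiers 26807 had a symbol in GENCODE M21, which gave positions and exon lengths. CPM used library totals of 14460393 and 13728098 counts. Ratios used effective library sizes from edgeR 4.0.16 (R 4.3.3), with DESeq2 1.42.0 size factors as an alternative. Other steps ran in Python 3.11.15 with scipy 1.17.1, pandas 2.3.3, numpy 2.4.6 and matplotlib 3.10.9. The ratio script was tested on simulated data. The planned tests between groups could not be fitted with 1 group. The members and lists were chosen with earlier results of these data known. Named genes were the members expressed in both libraries, the undetectable calcium sensors, SNAREs and active zone genes, the members at least 2-fold apart between libraries, and the paralog pairs. Any further gene was picked with its values known.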

Additional observations from a re-analysis of the deposited data

How the results depend on the processing

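The 4 summary results were members expressed, their summed share of counts, members at least 2-fold apart, and members below their relative. They were recomputed under 28 alternative settings, counted across the 4 results, and 26 left a result close to its reported value. Close here included 5 members at least 2-fold apart in place of 7. Leaving out a library could only keep or raise the counts of expressed members and of pairs. The share of either library alone is always within 1 SD of their mean, so it could not test the share. Ratios of members were recomputed separately, with library totals, DESeq2 size factors and pseudocounts of 0.1 and 2 CPM, and 0 called ratios reversed direction. The number of expressed members was 26, and ranged from 23 (2 CPM, without Sv2a, Syn2 and Syt3) to 31 (0.5 CPM, with Cplx2, Pclo, Rph3a, Syn3 and Syt2), and per length it was 24 (without Bsn and Syn2). Leaving out replicate 1 or replicate 2 gave 27 and 28. The summed share was 0.0453% without Nsf, and 0.0646% to 0.0653% with either library left out. The 7 members at least 2-fold apart became 3 with a pseudocount of 2 CPM (Pclo, Rab3a and Vamp2, against 3.91% of all genes) and 6 with library totals (against 9.32%), where Unc13a had a log2 ratio of -0.97 after -1.03. With a pseudocount of 0.1 CPM the same 7 of 34 members were 2-fold apart, while the share of all genes rose to 13.1%. With a mean of at least 1 CPM, 5 of 28 members were 2-fold apart, against 8.27% of all genes. Leaving out a library moved the mean of 3 expressed members (Rab3a, Syngr3 and Vamp2) by over 1.5 times. Replicate 1 alone gave 7.54, 2.77 and 26.5 CPM, and replicate 2 alone 16.5, 6.26 and 59.0 CPM. The 11 pairs with the member below its relative stayed 11 with the longest transcript and with either library left out. With another relative, chosen after seeing the data, the count was 10 for Stx2 in place of Stx4a and for Vamp4 or Vamp8 in place of Vamp3, and 11 for Stx3, Snap29 and Snap47. No paired analysis was possible because 1 group had matching columns. DESeq2 and the replicate block between groups were therefore not run, and the 2-fold count has no value with 1 library. Depth limits the 6 members at 3 counts or fewer, for which exact 95% Poisson upper limits ran from 0.255 CPM (Syt1, 0 counts in replicate 1) to 0.606 CPM (Unc13c, 3 counts in replicate 1).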
